A study of Mus musculus with 6 samples.

Results

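Contraction and relaxation of airway muscle are set by receptors on the muscle cell, and 9 of their genes were followed here: Chrm2, Chrm3, Ednra, Ednrb, Hrh1, Cysltr1, Bdkrb2, Ptger4 and Agtr1a. They were taken by symbol from a count table of 23478 genes, in which all 9 were found and all 9 passed the filter on low counts. RNA had been sequenced from cells of mouse tracheas at embryonic day 13.5, with 3 libraries of muscle and 3 of epithelium. All 6 libraries came from control embryos labelled Bmp4 f/f; gamma SMA eGFP, that is, with floxed Bmp4 and with eGFP driven as gamma SMA (gamma smooth muscle actin) is, and no Cre driver is named. Sorting on GFP gave the muscle, and sorting on surface Epcam gave the epithelium, so the muscle group holds whichever cells the reporter marks. The labels do not say whether the libraries of a group came from separate litters or pools, so p-values measure only the spread between these libraries, which may be technical.

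All 9 encode receptors with the seven-helix fold that act through heterotrimeric G proteins. Receptors that couple to Gq raise calcium through phospholipase C and inositol trisphosphate, and calcium then activates myosin light chain kinase and shortens the cell. Receptors that couple to Gs raise cyclic AMP and relax it, and those that couple to Gi oppose that rise. In the mature airway, acetylcholine from parasympathetic nerves is the main contracting signal, and endothelins, histamine, leukotrienes and bradykinin act beside it.

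Library totals ran from 11847432 to 54848820 counts. The 10 smooth muscle markers were all higher in muscle, with a summed level, in counts per 1000000 (CPM), of 4137 to 17828 there and 122 to 154 in epithelium. The 10 epithelial markers were all higher in epithelium, with 3797 to 4869 CPM there and 15.5 to 31.4 CPM in muscle. Of 7 fibroblast markers 6 were higher in muscle, and their sum was 8159 to 10847 CPM in muscle and 369, 2188 and 274 CPM in epithelium replicates 1 to 3. Of 6 pericyte markers tested, 3 were higher in muscle (Pdgfrb, Cspg4 and Rgs5). The sums of that list were 1172 to 1393 CPM in muscle and 134 to 243 CPM in epithelium. Of 8 cartilage markers, 1 (Col9a1) was higher in muscle, with sums of 443 to 853 CPM there and 182 to 346 CPM in epithelium. Col9a3 was higher in every muscle library without passing the test, and the other cartilage markers overlapped between groups. Of 5 mesothelial markers, 1 was higher in epithelium, with sums of 157 to 407 CPM there and 3.53 to 18.6 CPM in muscle. That gene was Krt19, which is also on the epithelial list. It had 153.9, 390.8 and 221.8 CPM in epithelium replicates 1 to 3, most of each sum. Wt1, Upk3b, Msln and Lrrn4 overlapped between groups and did not pass. The part of these cell types in the receptor results was not tested. The sums of 12 neural and glial markers (24.8 to 75.6 CPM in muscle, 33.7 to 94.0 CPM in epithelium) and of 10 immune markers overlapped between groups, and no gene of either list passed the test. In bulk libraries, fewer cells of a type and less RNA per cell cannot be told apart. Counts in 1456 olfactory and vomeronasal receptor genes, which belong to sensory neurons, served as a measure of stray counts. They summed to 883, 1817 and 636 CPM of the library total in muscle replicate 2, epithelium replicate 2 and epithelium replicate 3, and to 37.8, 24.1 and 7.26 in muscle replicates 1 and 3 and epithelium replicate 1.

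Of the 9 receptor genes, 3 were higher in muscle than in epithelium (Chrm2, Ednra and Ednrb) and none the other way. The threshold was 0.05 on the Benjamini-Hochberg p of edgeR's quasi-likelihood fit. No further receptor of the 9 had an unadjusted p under 0.05, and DESeq2 likewise called none higher in epithelium. Among all 19375 genes tested, 10.7% passed, made up of 6.58% toward muscle and 4.11% toward epithelium. The groups did not overlap in the same 3 receptor genes, against 26.9% of all tested genes. The median log2 fold change of the 9 genes was 0.45, beside -0.10 over all tested genes. The remaining 6 receptors were low in both populations, with no library above 7.79 CPM.

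**Figure D1:**
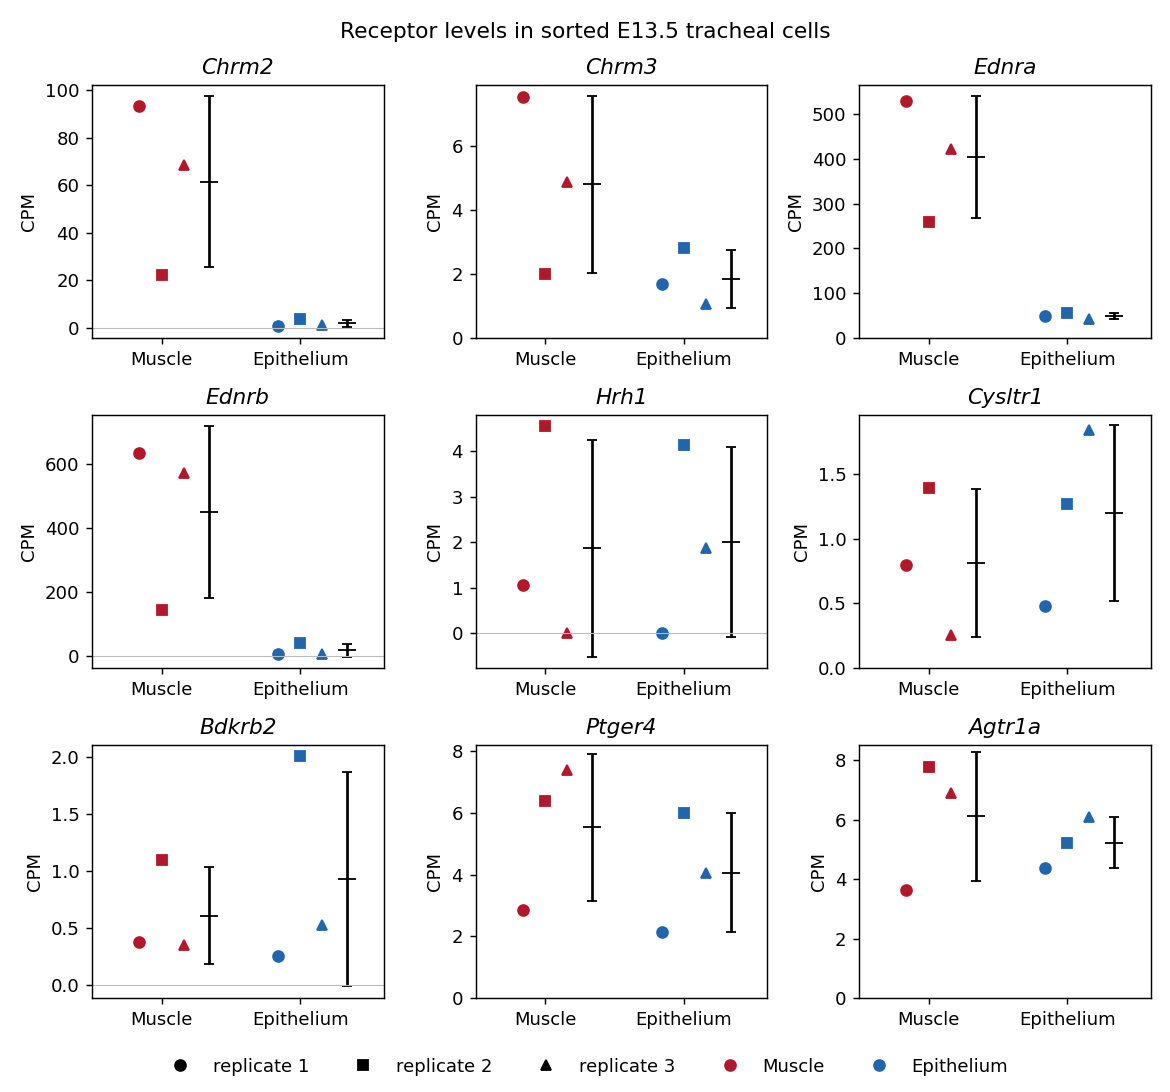
Level of each of the 9 receptor genes in CPM (linear axis) in the 3 muscle and 3 epithelium libraries, with the mean and SD of each group beside the points. Chrm2, Ednra and Ednrb separate the groups, while the other 6 panels overlap and stay under 8 CPM, with different axis ranges between panels.

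Promoter sequences of the 3 genes that were higher in muscle are shown because these genes moved together between the populations. They are the 300-base promoter windows of RefSeq (GRCm38.p6), from 250 bases before the annotated start. Windows were found for 7 of the 9 genes. The RefSeq window of Ednrb lies wholly within the gene as GENCODE M21 places it (103814625 to 103844402, minus strand). Capitals mark every match, on either strand, to one of 7 motifs searched: the CArG box of serum response factor, the TATA box TATAAA, the CCAAT box spelled CCAAT, the GC box GGGCGG, the E-box CANNTG, the Tcf/Lef core CTTTGAT and the AP-1 site TGANTCA.
Chrm2 promoter (chr6:36387834-36388133, plus strand): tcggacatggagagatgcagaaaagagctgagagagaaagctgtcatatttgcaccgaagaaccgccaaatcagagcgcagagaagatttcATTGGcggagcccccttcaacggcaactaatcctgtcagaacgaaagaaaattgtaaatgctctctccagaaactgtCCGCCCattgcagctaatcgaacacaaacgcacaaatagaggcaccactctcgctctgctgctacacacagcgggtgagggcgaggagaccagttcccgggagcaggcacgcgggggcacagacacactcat
Ednra promoter (chr8:77724403-77724702, minus strand): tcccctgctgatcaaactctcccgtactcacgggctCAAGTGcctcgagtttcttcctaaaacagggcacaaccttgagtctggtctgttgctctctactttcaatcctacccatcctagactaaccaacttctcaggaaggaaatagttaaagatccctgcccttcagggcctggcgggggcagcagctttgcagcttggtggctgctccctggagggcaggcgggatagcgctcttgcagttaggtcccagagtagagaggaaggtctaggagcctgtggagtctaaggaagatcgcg
Ednrb promoter (chr14:103843652-103843951, minus strand): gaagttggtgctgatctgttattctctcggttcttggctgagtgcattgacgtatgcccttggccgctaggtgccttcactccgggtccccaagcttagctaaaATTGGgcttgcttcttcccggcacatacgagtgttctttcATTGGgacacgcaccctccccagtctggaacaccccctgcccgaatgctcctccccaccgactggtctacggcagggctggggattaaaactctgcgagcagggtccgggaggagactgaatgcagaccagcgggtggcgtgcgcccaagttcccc
The Chrm2 window held 1 CCAAT match (read as ATTGG on the strand shown) and 1 GGGCGG match, and the Ednrb window held 2 CCAAT matches. CCAAT occurred in 37.4% and GGGCGG in 35.7% of 32851 promoter windows of the same length. The Ednra window held 1 E-box, a motif present in 72.3% of windows. No window of the 3 held a CArG box (1.63% of all windows), TATAAA (13.6%), CTTTGAT (3.73%) or TGANTCA (7.81%). These matches did not overlap one another. The GC content was 52.7%, 54.7% and 58.7% for Chrm2, Ednra and Ednrb, beside a median of 52.7% over all windows. No motif was thus shared by all 3 windows, and a match in these letters is not a measured binding site.

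Chrm2 encodes the M2 muscarinic acetylcholine receptor, which couples to Gi and restrains cyclic AMP. The gene lies on chromosome 6 of GRCm38 (36388084 to 36528414, plus strand), and its coding sequence is held in 1 exon. Chrm2 had 93.1, 22.5 and 68.6 CPM in muscle replicates 1 to 3 and 1.00, 3.74 and 1.5 CPM in epithelium replicates 1 to 3. Every muscle library was thus above every epithelium library, and muscle replicate 2 was the lowest of its group. The log2 fold change was 4.95 ± 0.67 (SE), a 30.8-fold higher level in muscle (adjusted p = 0.0021, edgeR). Muscle replicate 2 also had the lowest sum of smooth muscle markers, 4137 CPM against 16896 and 17828 CPM. Set against that sum, Chrm2 amounted to 5.51, 5.43 and 3.85 CPM per 1000 CPM of smooth muscle markers in the 3 muscle libraries. The part of muscle content in the spread of Chrm2 was not tested. An antisense transcript, 9330158H04Rik, overlaps 142 exonic bases of Chrm2, and these libraries keep no strand. It had 2.13 to 2.38 CPM in muscle and 0.11 to 3.34 CPM in epithelium. Per kilobase of exon, 18.9% and 19.4% of the olfactory and vomeronasal receptor genes matched or exceeded Chrm2 in epithelium replicates 2 and 3, against at most 0.14% in the other 4 libraries.

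Chrm3 encodes the M3 muscarinic receptor, which couples to Gq and is the receptor through which acetylcholine contracts mature airway muscle. Its gene spans bases 9875486 to 10360847 of chromosome 13 (minus strand). Chrm3 had 7.53, 2.00 and 4.88 CPM in muscle and 1.67, 2.81 and 1.05 CPM in epithelium, so that muscle replicate 2 fell below epithelium replicate 2. The difference, 1.38 ± 0.97 on the log2 scale, missed the threshold (adjusted p = 0.55, edgeR), and it passed in none of 15 alternative analyses. Per kilobase of exon, Chrm3 in epithelium replicates 2 and 3 was matched or exceeded by 26.0% and 28.7% of the olfactory and vomeronasal receptor genes. In muscle replicate 2 that share was 20.1%, and in muscle replicate 1 no such gene reached Chrm3.

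Within a library, the count of Chrm2 over that of Chrm3 does not depend on scaling. The ratio was 12.4, 11.3 and 14.1 in the muscle libraries and 0.60, 1.33 and 1.43 in the epithelium libraries. The muscle libraries were close to one another and all above the epithelium libraries, including muscle replicate 2. The mean log2 ratio was 3.58 higher in muscle, a 12.0-fold difference (two-sided exact permutation p = 0.10, the smallest that 3 against 3 libraries can give, and 0.20 adjusted over the 2 receptor pairs compared). The epithelium ratios rest on 40 to 56 counts of Chrm2 and 28 to 90 counts of Chrm3. The ratio of muscle replicate 2 rests on 40 counts of Chrm3.

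Ednra and Ednrb encode the endothelin receptors. The first prefers Edn1 and Edn2 peptides and couples mainly to Gq, and the second binds all endothelins alike. Both receptors can contract airway muscle, and Ednrb is also a known gene of migrating neural crest cells and of endothelium. Ednra lies on chromosome 8 (77663031 to 77724464, minus strand) and Ednrb on chromosome 14 (103814625 to 103844402, minus strand), each with 7 coding exons.

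Ednra had 529.8, 259.1 and 422.5 CPM in muscle and 49.9, 56.9 and 41.8 CPM in epithelium. All muscle libraries were above all epithelium libraries, and the epithelium libraries lay close together. The log2 fold change was 3.03 ± 0.32, an 8.16-fold difference (adjusted p = 0.00080, edgeR). In epithelium, Ednra stood at 10.4% to 14.1% of its muscle mean. Smooth muscle markers reached a median of 0.93%, 1.99% and 0.72% of their muscle mean in the same 3 libraries. Fibroblast marker sums there were 369, 2188 and 274 CPM, against 8159 to 10847 CPM in muscle. Pericyte marker sums were 226, 243 and 134 CPM, against 1172 to 1393 CPM in muscle. The part of carry-over and of other cell types in the epithelial level of Ednra was not tested. No olfactory or vomeronasal receptor gene reached the level of Ednra per kilobase in any library. Ednra exons overlap 91 bases of 4933431K23Rik, on the opposite strand, which the count table does not hold.

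Ednrb had 634.4, 143.0 and 569.3 CPM in muscle and 6.82, 40.9 and 6.99 CPM in epithelium. The groups did not overlap, with muscle replicate 2 low and epithelium replicate 2 high in their groups. The log2 fold change was 4.64 ± 0.88, a 24.9-fold difference (adjusted p = 0.011, edgeR). The call was lost without muscle replicate 1 (adjusted p = 0.056), epithelium replicate 1 (0.064) or epithelium replicate 3 (0.053), although the log2 fold change stayed between 4.12 and 5.94 when any 1 library was left out. It was also lost with a covariate for stray counts (5.09 ± 1.57, adjusted p = 0.14) and with the replicate number as a block (5.15 ± 1.28, adjusted p = 0.069), where the log2 fold change was no smaller and its SE was larger. Without epithelium replicate 2 the log2 fold change was 5.94 (adjusted p = 0.0013). The log2 fold change was 6.37 (adjusted p = 0.00016, edgeR) within the 4 libraries that share an identifier in the table's header, a set without both replicates numbered 2.

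Epithelium replicate 2 also had the highest fibroblast marker sum of the epithelium libraries, 2188 CPM against 369 and 274. Its endothelial marker sum was 75.6 CPM, against 14.3 and 34.2 CPM in the other epithelium libraries and 75.6 to 106.8 CPM in muscle, and 1 of the 9 endothelial markers passed the test, toward muscle. That marker was Esam, with 20.4 to 28.8 CPM in muscle and 0.86 to 8.09 CPM in epithelium (adjusted p = 0.036, edgeR). Tek had 26.6 to 34.6 CPM in muscle and 0.72 to 15.3 CPM in epithelium, without overlap and short of the threshold (adjusted p = 0.15). In muscle replicate 1, Tek and Esam had 34.6 and 28.8 CPM of the endothelial sum of 75.6 CPM. Cdh5 (0.08 to 3.94 CPM in muscle and 0 to 4.54 CPM in epithelium) and the neural crest gene Sox10 (2.55 to 6.59 and 2.60 to 10.4 CPM) overlapped and did not pass. So did the remaining endothelial markers, Pecam1, Kdr, Tie1, Emcn, Cldn5 and Egfl7. The part of other cell types in the level of Ednrb was not tested.

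The count of Ednrb over that of Ednra was 1.20, 0.55 and 1.35 in muscle and 0.14, 0.72 and 0.17 in epithelium. Here the groups overlapped, since the muscle and epithelium libraries numbered 2 were crossed in order. The mean log2 ratio was 1.92 higher in muscle (two-sided exact permutation p = 0.20). Relative to smooth muscle markers, Ednrb was level across the muscle libraries, at 37.5, 34.6 and 31.9 CPM per 1000 CPM of markers, while Ednra was 31.4, 62.6 and 23.7.

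**Figure D2:**
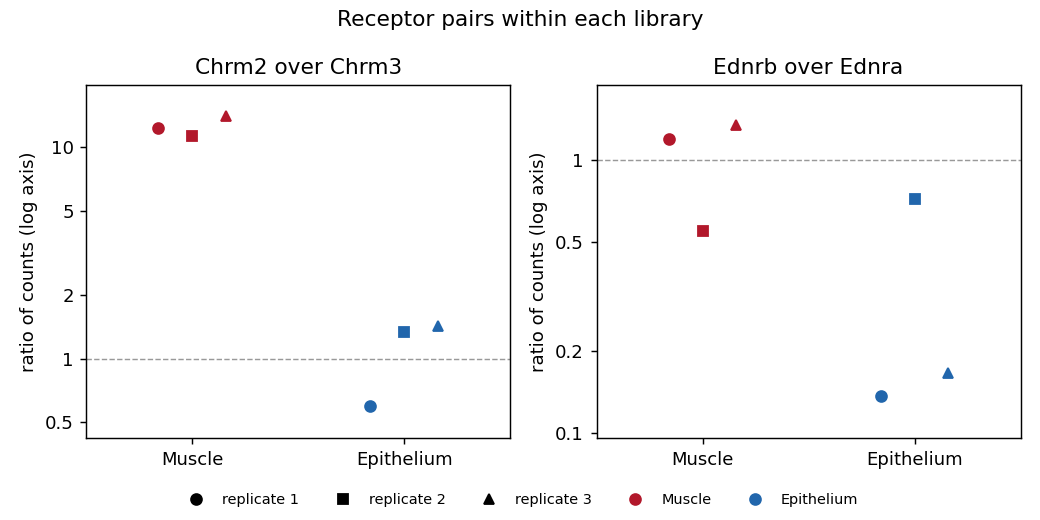
Ratio of counts within each library (log axis) for Chrm2 over Chrm3 and for Ednrb over Ednra, with the dashed line at equal counts. The muscle libraries lie at 11.3 to 14.1 for the muscarinic pair, above all epithelium libraries, whereas the endothelin pair overlaps at the libraries numbered 2.

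Hrh1, Cysltr1 and Bdkrb2 encode the contracting receptors for histamine, cysteinyl leukotrienes and bradykinin, all of which couple to Gq. Hrh1, on chromosome 6 (114397936 to 114483296), had 1.06, 4.54 and 0 CPM in muscle and 0, 4.14 and 1.88 CPM in epithelium. The 0 values in muscle replicate 3 and epithelium replicate 1 allow levels of up to 0.076 and 0.056 CPM (3 counts). The highest values were in both libraries numbered 2, which also had the most stray counts of their group. Its log2 fold change of -0.10 ± 2.24 (adjusted p = 0.99, edgeR) changed sign with the analysis.

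Cysltr1 (chromosome X, 106574346 to 106603679) had 0.80, 1.4 and 0.25 CPM in muscle and 0.48, 1.27 and 1.84 CPM in epithelium, or 10 to 49 counts per library. Bdkrb2 (chromosome 12, 105563226 to 105595237) had 0.38, 1.10 and 0.35 CPM in muscle and 0.26, 2.01 and 0.53 CPM in epithelium, or 10 to 30 counts. Neither passed the test (adjusted p = 0.94 for each, edgeR), and their groups overlapped. In the 3 libraries richest in stray counts, 12.4% to 41.3% of the olfactory and vomeronasal receptor genes matched or exceeded Cysltr1 per kilobase, and 22.3% to 34.4% did so for Bdkrb2. In the other 3 libraries these shares were 0.49% to 3.06% and 0.56% to 2.43%. No difference between populations was detected for these 3 genes, and the part of stray counts in their levels was not tested.

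Ptger4 encodes the EP4 receptor, through which prostaglandin E2 raises cyclic AMP and relaxes airway muscle. It lies on chromosome 15 (5206661 to 5244187) and had 2.85, 6.39 and 7.38 CPM in muscle and 2.14, 6.02 and 4.06 CPM in epithelium. The groups overlapped, and the log2 fold change was 0.45 ± 0.75 (adjusted p = 0.90, edgeR). Its exons overlap those of Ttc33, on the opposite strand, by 82 bases, and Ttc33 had 38.0 to 55.5 CPM in muscle and 37.8 to 40.4 CPM in epithelium. Ptger4 exons also overlap 1015 bases of the processed pseudogene Gm15937, on the opposite strand, which the count table does not hold. Agtr1a encodes the type 1a angiotensin II receptor, which couples to Gq, and lies on chromosome 13 (30336441 to 30382867). It had 3.65, 7.79 and 6.90 CPM in muscle and 4.39, 5.21 and 6.08 CPM in epithelium, which overlapped (0.23 ± 0.59 on the log2 scale, adjusted p = 0.93, edgeR). Agtr1a and its close copy Agtr1b can share reads, so both values are uncertain. Unlike Cysltr1 and Bdkrb2, Agtr1a was reached per kilobase by at most 3.47% of the olfactory and vomeronasal receptor genes in any library.

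**Figure D3:**
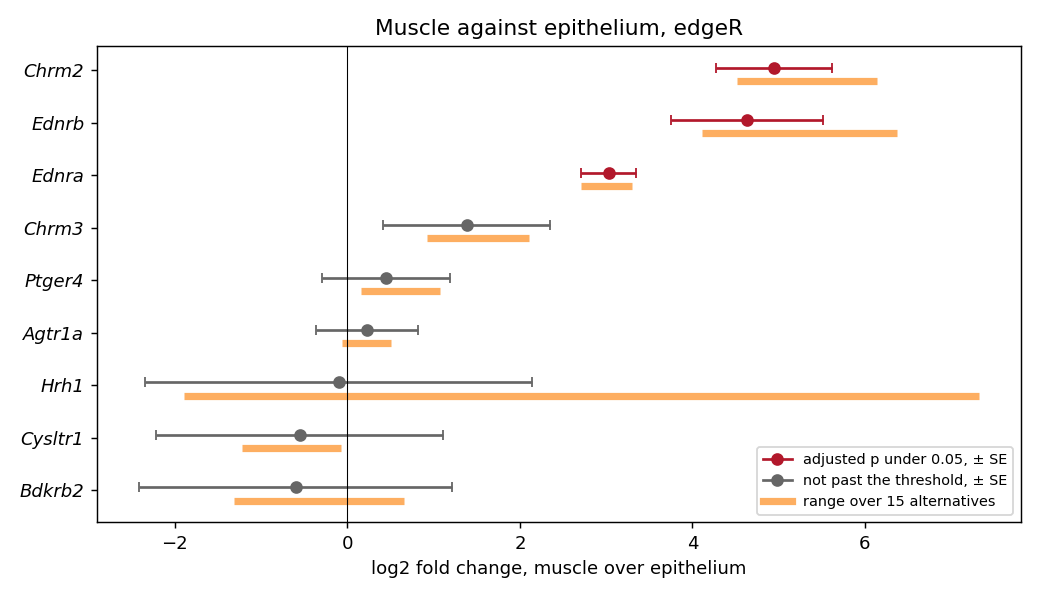
Log2 fold change of muscle over epithelium for the 9 receptor genes (points, with SE) and the range of that value over 15 alternative analyses (bars). Chrm2, Ednrb and Ednra lie between 3.03 and 4.95 with ranges clear of 0, and the other 6 points lie between -0.60 and 1.38.

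Levels of different genes were compared as CPM per kilobase of exon (union of GENCODE M21 exons). In muscle, Ednrb (105.2 ± 62.6, SD, n = 3) and Ednra (73.7 ± 24.9) were the most abundant of the 9, with overlapping spreads and every library above those of Chrm2. Their order was the other way round when the length of the principal transcript was used, at 109.3 and 111.4. Chrm2 followed at 10.1 ± 5.92, then Agtr1a (2.19 ± 0.78), Ptger4 (0.83 ± 0.36), Chrm3 (0.77 ± 0.44) and Hrh1 (0.42 ± 0.53). Bdkrb2 and Cysltr1 were lowest, both at 0.16 ± 0.11. Chrm2 and Agtr1a did not overlap in any pair of muscle libraries, and neither did Agtr1a and Ptger4. By the length of the principal transcript, however, the muscle libraries of Agtr1a and Ptger4 overlapped, with means of 2.78 and 1.70. The spreads of Ptger4, Chrm3 and Hrh1 overlapped by exon union. In epithelium, Ednra (9.04 ± 1.37) came first, followed by Ednrb (4.27 ± 4.6) and Agtr1a (1.88 ± 0.30), and the other 6 had means from 0.23 to 0.61.

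A list of 60 other receptors that contract or relax airway muscle was then set beside the 9. Of 57 tested, 9 passed toward muscle and 2 toward epithelium (6.58% and 4.11% of all tested genes), and the list's median log2 fold change was 0.63. The 37 contraction receptors gave 5 and 2 of 34 tested, and the 23 relaxation receptors 4 and 0 of 23. The count in muscle was 3 without muscle replicate 3 or epithelium replicate 3, 4 without muscle replicate 1 and 5 without epithelium replicate 1. It was 5 with library totals only or with the replicate block. Over all tested genes, the count toward muscle also fell from 1274 when 1 of those libraries was left out. It was then 716 (muscle replicate 3), 570 (epithelium replicate 3), 809 (muscle replicate 1) and 1007 (epithelium replicate 1).

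Among contraction receptors, the thromboxane receptor gene Tbxa2r had 63.9, 43.1 and 53.0 CPM in muscle and 1.45, 5.35 and 2.10 CPM in epithelium. The log2 fold change was 4.21 ± 0.50 (adjusted p = 0.0011, edgeR), and it passed in all 15 alternatives, as did Chrm2 and Ednra. The sphingosine 1-phosphate receptor genes S1pr3 (1549, 512.6 and 908.6 CPM in muscle against 64.7, 218.9 and 47.7 CPM) and S1pr2 (log2 fold change 1.12, adjusted p = 0.019) were also higher in muscle. S1pr3, like Ednrb, was highest among epithelium libraries in replicate 2 and lost its call with the replicate block and with the covariate for stray counts (adjusted p up to 0.13). S1pr2 lost its call in 4 of the 6 analyses that left out 1 library (adjusted p up to 0.13). The prostaglandin receptor gene Ptger3 (log2 fold change 2.24, adjusted p = 0.032), which opposes cyclic AMP, and the thrombin receptor gene F2r (0.99, adjusted p = 0.049) were called too. Both lost the call in several alternatives, 6 and 7 of 15, at an adjusted p of up to 0.16 and 0.25. Toward epithelium, the nucleotide receptor gene P2ry2 had 5.47 to 6.85 CPM in muscle and 71.5 to 89.8 CPM in epithelium (log2 fold change -3.73 ± 0.25, adjusted p = 9.6e-05, edgeR). The lysophosphatidic acid receptor gene Lpar1 (-1.20, adjusted p = 0.014) was the other, and it lost its call without muscle replicate 3 (0.079).

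The relaxation receptors that were higher in muscle belonged to the calcitonin peptide and natriuretic peptide systems. Calcrl, the receptor for calcitonin gene-related peptide and adrenomedullin, had 15.9, 23.1 and 22.5 CPM in muscle and 1.71, 3.61 and 5.60 CPM in epithelium (log2 fold change 2.50 ± 0.48, adjusted p = 0.010, edgeR). The call was lost within the 4 libraries sharing a header identifier (0.062). Its partner proteins, which set ligand choice, are encoded by Ramp1 (1.57, adjusted p = 0.035) and Ramp2 (2.89, adjusted p = 0.040). Npr2, the guanylyl cyclase receptor for C-type natriuretic peptide, was called at 1.61 (adjusted p = 0.045). Ramp1, Ramp2 and Npr2 lost their calls in 8, 7 and 7 of the 15 alternatives, at an adjusted p of up to 0.27, 0.30 and 0.19. Agtr2, the type 2 angiotensin receptor gene, was named after its values were seen. It had 6.73, 80.2 and 30.4 CPM in muscle and 1.00, 22.7 and 3.42 CPM in epithelium (2.14, adjusted p = 0.34, and 15 alternatives of which 1, the replicate block, passed). Among the muscle libraries, replicate 2 was thus the highest for Agtr2 and the lowest for Chrm2 and Ednrb.

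**Figure D4:**
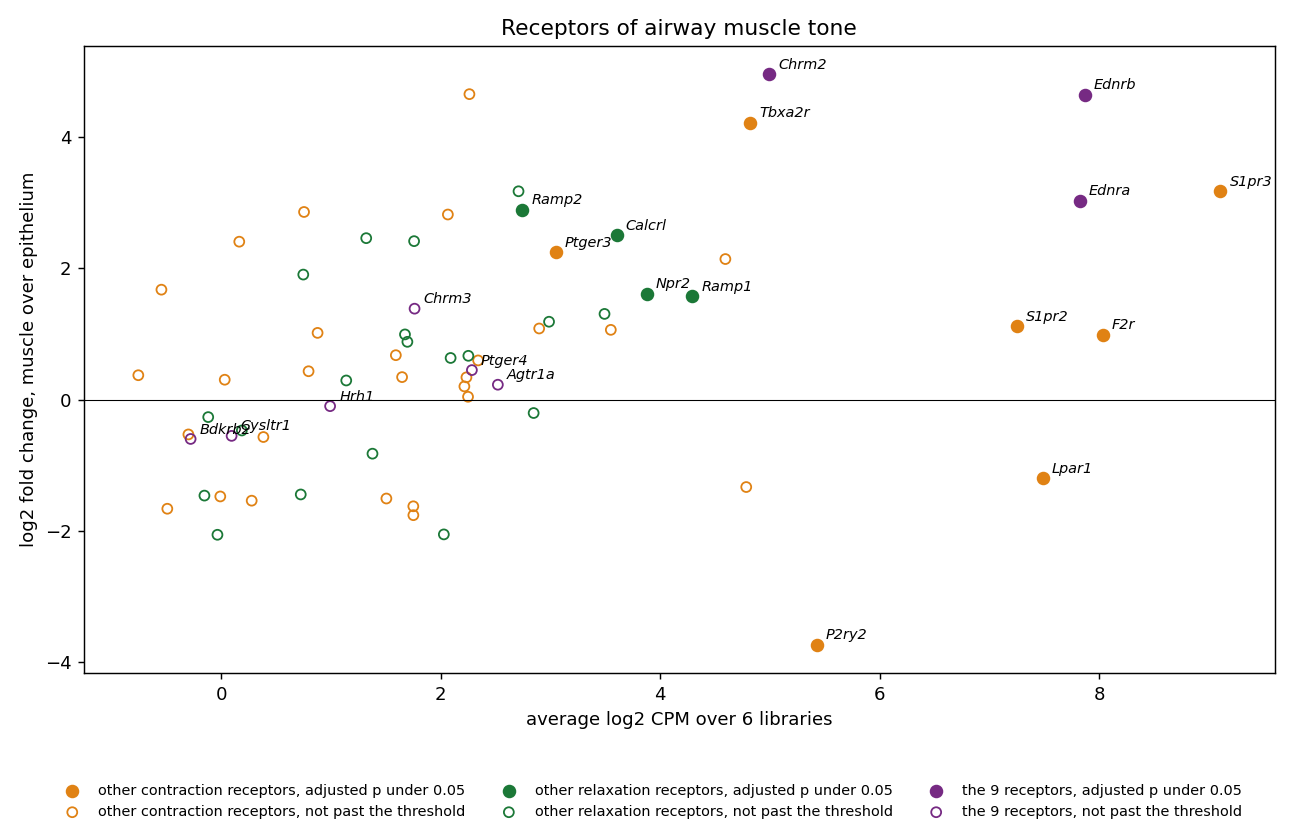
Log2 fold change of muscle over epithelium against average log2 CPM for the 9 receptor genes and the 57 other receptor genes tested, filled where the adjusted p was under 0.05 and named where called or among the 9. Called genes lie to the right, at an average log2 CPM above 2, and among them Chrm2, Ednrb and Tbxa2r are highest and P2ry2 lowest. The contraction receptor gene Tacr2, which was not called, lies at 4.65 (adjusted p = 0.13, edgeR).

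The supply of ligands was examined with 46 genes of ligand synthesis, activation and clearance, of which 45 were tested. Of these, 5 passed toward muscle and 2 toward epithelium, and the median log2 fold change was -0.58. Against 6.58% and 4.11% of all tested genes, the count toward epithelium was near the background. The 2 genes higher in epithelium were endothelin genes. Edn1 had 2.66, 7.64 and 2.50 CPM in muscle and 14.1, 27.0 and 14.7 CPM in epithelium, and Edn3 had 38.6, 13.0 and 13.5 CPM in muscle and 93.6, 48.0 and 99.9 CPM in epithelium. The log2 fold changes were -2.13 ± 0.54 (adjusted p = 0.036, edgeR) for Edn1 and -1.89 ± 0.48 (adjusted p = 0.035) for Edn3. For both, every epithelium library was above every muscle library, the reverse of Ednra and Ednrb. Each lost its call in 4 of the 6 analyses without 1 library, with adjusted p reaching 0.12 and 0.11. Edn2 had 2.80 to 7.83 CPM in muscle and 2.42 to 5.95 CPM in epithelium (adjusted p = 0.94). Ece1, which encodes the enzyme that cleaves the endothelin precursors, had 267.2, 69.1 and 221.9 CPM in muscle and 181.0 to 185.5 CPM in epithelium (adjusted p = 0.99).

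Of the genes higher in muscle, 3 make prostanoids, while 2 other synthesis genes, Ptges2 and Ptgs2, were above muscle in every epithelium library without passing the test. Ptges2, a further prostaglandin E synthase gene, had 3.15, 6.44 and 19.5 CPM in muscle and 50.3, 39.0 and 34.8 CPM in epithelium (log2 fold change -2.09 ± 0.58, adjusted p = 0.052, edgeR). Ptgs2, the inducible cyclooxygenase gene, had 1.71, 11.8 and 6.75 CPM in muscle and 12.4, 26.6 and 11.9 CPM in epithelium (-1.33 ± 0.65, adjusted p = 0.29). Both were named after their values were seen. Ptges, the inducible prostaglandin E synthase gene, had 84.9, 46.2 and 48.9 CPM in muscle and 4.07, 0.94 and 3.34 CPM in epithelium (log2 fold change 4.39 ± 0.53, adjusted p = 0.0012, edgeR), and it passed in all 15 alternatives. Ptgs1, the constitutive cyclooxygenase gene, had 81.4, 74.8 and 119.2 CPM against 2.83, 19.0 and 12.8 CPM (3.00 ± 0.60, adjusted p = 0.013), and lost its call without epithelium replicate 3 (0.060). Ptgis, the prostacyclin synthase gene, was called at 1.11 on the log2 scale (adjusted p = 0.016), and lost its call in 3 of the 6 analyses without 1 library (up to 0.089). Among receptors for prostaglandin E2, Ptger3 was called in muscle as above and Ptger4 was not. Ptger1 (15.7 ± 7.06 CPM in muscle and 7.53 ± 2.14 in epithelium, SD, n = 3) and Ptger2 (4.10 ± 2.73 and 0.75 ± 0.79) did not pass the test, with edgeR adjusted p of 0.18 and 0.55. Every muscle library was nevertheless above every epithelium library for both genes, narrowly for Ptger1 (9.73 against 9.63 CPM). Both were named after their values were seen. The other genes higher in muscle were Lta4h (1.06, adjusted p = 0.024), which makes leukotriene B4, and Enpep (2.65, adjusted p = 0.023), which degrades angiotensin II. They lost their calls in 4 alternatives each, at up to 0.11 and 0.10. Toward muscle, the count was 1 without epithelium replicate 3 and 2 without muscle replicate 3 (570 and 716 over all tested genes). It was 3 without muscle replicate 1 (809 over all tested genes). Toward epithelium, the number was 0 with epithelium replicate 3 dropped (599 over all tested genes) and 5 with DESeq2 (1514). It was 1 when any 1 of muscle replicates 1 and 3 and epithelium replicates 1 and 2 was dropped (514 to 875).

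Ligand genes of several low receptors were low as well. Chat, the gene of acetylcholine synthesis, had 0, 3.69 and 0.05 CPM in muscle and 0.28, 6.88 and 1.76 CPM in epithelium. Hdc, for histamine, had 0.33 to 4.69 and 0.59 to 9.02 CPM. Kng1 and Kng2, for kininogens, were at 0 in muscle replicates 1 and 3 and had at most 4.21 CPM elsewhere. For each of these the libraries numbered 2 were the highest of their groups. Agt, the angiotensinogen gene, had 0, 2.15 and 3.44 CPM in muscle and 5.41, 1.47 and 5.45 CPM in epithelium. Ltc4s, for cysteinyl leukotriene synthesis, had 0, 0.10 and 0.08 CPM in muscle, all at 3 counts or fewer, and 1.11, 1.00 and 1.13 CPM in epithelium. The groups of Ltc4s did not overlap, yet it did not pass the test (adjusted p = 0.35, edgeR), and it passed in 2 of 15 alternatives. Ache, for acetylcholinesterase, had 14.9, 2.25 and 2.30 CPM in muscle and 0.99, 0.74 and 0.41 CPM in epithelium (3.18 ± 1.13, adjusted p = 0.12), also without overlap, and passed in 2 alternatives. Ace had at most 2.95 CPM in muscle and 6.68 CPM in epithelium.

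**Figure D5:**
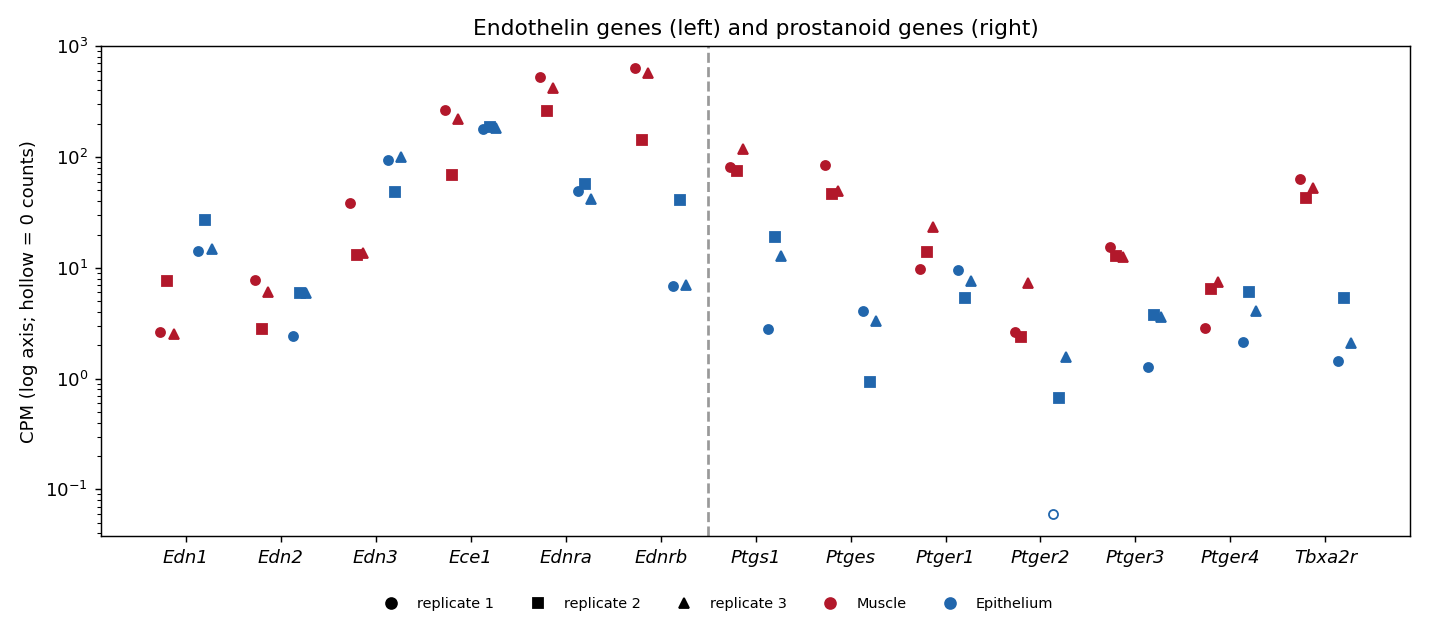
Level in CPM (log axis) of endothelin genes, left of the dashed line, and of prostanoid genes, right of it, in each library, with a hollow symbol for 0 counts. Edn1 and Edn3 are higher in every epithelium library, while Ednra, Ednrb, Ptgs1, Ptges, Ptger1, Ptger2, Ptger3 and Tbxa2r are higher in every muscle library. Of these, Ptger1 and Ptger2 did not pass the test.

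The machinery that carries receptor signals to calcium and myosin was followed with 33 genes, all tested. Of these, 9 passed toward muscle and 1 toward epithelium (6.58% and 4.11% of all tested genes), with a median log2 fold change of 0.63. Mylk, the myosin light chain kinase gene, had 1332, 311.3 and 1842 CPM in muscle and 3.48, 18.8 and 9.31 CPM in epithelium (log2 fold change 6.80 ± 0.89, adjusted p = 0.0018, edgeR). Cald1, for the actin-binding protein caldesmon, was higher too (4.55 ± 0.50, adjusted p = 0.00090). Plcb1, a phospholipase C that Gq activates, was called at 1.86 ± 0.33 (adjusted p = 0.0078) and passed in all 15 alternatives. The genes Gnaq and Gna11 of the Gq class itself, named after their values were seen, had 116.1 to 168.5 and 104.3 to 174.9 CPM in muscle and 101.1 to 106.2 and 78.7 to 103.2 CPM in epithelium. They did not pass the test, with edgeR adjusted p of 0.26 and 0.20.

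Of the 4 RGS genes in that list, whose proteins shorten signalling by Gq and Gi, all were higher in muscle. Rgs5 had 36.2, 80.0 and 82.9 CPM in muscle and 0.99, 4.54 and 2.93 CPM in epithelium (log2 fold change 4.6 ± 0.59, adjusted p = 0.0016, edgeR). Rgs5 is also a pericyte marker, and the pericyte markers Pdgfrb (535.6 to 754.7 CPM in muscle and 7.40 to 33.8 in epithelium) and Cspg4 (174.3 to 292.1 and 8.45 to 35.0) were higher in muscle too (adjusted p = 0.00085 and 0.0039). Of the same list, Kcnj8 and Abcc9 were higher in every muscle library without passing the test (adjusted p = 0.062 and 0.071, edgeR). Notch3 overlapped between groups (adjusted p = 0.82), and Higd1b, at 0.08 to 0.15 CPM in muscle, did not pass the filter. The part of pericytes in the level of Rgs5 was not tested. Rgs2 (2.28, adjusted p = 0.0036), Rgs3 (1.16, adjusted p = 0.0098) and Rgs4 (3.61, adjusted p = 0.026) followed. Rgs2 and Rgs5 passed in all 15 alternatives, Rgs3 lost its call in 2 and Rgs4 in 8. Genes of myosin phosphatase control were also called, with Ppp1r14a (2.45, adjusted p = 0.0098), an inhibitor of that enzyme, and Ppp1r12a (0.97, adjusted p = 0.047), its targeting subunit. Rock1, a kinase gene, was higher in epithelium (-0.96, adjusted p = 0.039). Ppp1r12a and Rock1 each lost their calls in 5 of the 6 analyses without 1 library, with adjusted p reaching 0.23 and 0.18. Without epithelium replicate 3 the count in muscle was 5, while that over all tested genes fell from 1274 to 570.

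For each called receptor, the 2 genes with the most similar profile were taken by Pearson correlation of log2 CPM over the 6 libraries, among 9370 other genes whose average log2 CPM reached 4. Such values are high for any pair of genes that differ strongly between the groups, so they are given as a description. For Chrm2 they were Mir143hg (r = 0.999), the host transcript of miR-143 and miR-145, and Rbm46 (0.998). Mir143hg had 117.7, 16.5 and 71.6 CPM in muscle, with the same low second library as Chrm2, and 0.39 to 2.34 CPM in epithelium. For Ednra they were Mxra8 (0.999) and the homeobox gene Meis1 (0.999), which had 119.5, 125.0 and 104.5 CPM in epithelium and 864.9, 430.5 and 692.3 CPM in muscle. For Ednrb they were Jam2 (0.998) and the T-box gene Tbx5 (0.997), which had 8.53, 33.95 and 8.15 CPM in epithelium. Epithelium replicate 2 was thus the highest of its group for both Tbx5 and Ednrb.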

How the data were processed

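Whole-number counts per gene symbol, as deposited by the authors, were analysed for 6 libraries. Per the labels' protocols, cells were dissociated with TrypLE, stained for Epcam and sorted, and libraries were made with SMART-Seq v4 and Nextera XT. These kits keep no strand and carry no molecular identifiers. Counts therefore include PCR copies. Per the submitters' processing notes, mm10, Trim Galore, Bowtie2, Cufflinks and DESeq were used, and the counting program is not given in the sources used here. Counts of 1 to 19 were even in 73.8% to 79.6% of cases per library.

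Muscle was compared with epithelium in R 4.3.3 with edgeR 4.0.16 (filterByExpr, TMM scaling, robust quasi-likelihood test, two-sided, Benjamini-Hochberg over all tested genes, threshold 0.05). CPM uses TMM-scaled library sizes. SE was derived from the test statistic. The floor was 3 counts and covers counting error only, as library depth does. Since low counts were mostly even, for a reason not tested, single counts may not be independent and the floor may be too low. Alternatives used DESeq2 1.42.0, limma 3.58.1 (voom), other scaling, no filter, a replicate block, a covariate for stray counts, the 4 libraries sharing a header identifier, leaving out each library and, added after seeing the data, leaving out the 3 libraries with the most stray counts. That last alternative set muscle replicates 1 and 3 against epithelium replicate 1 alone, so it holds no spread within epithelium. The procedure was tested on simulated data. Positions and lengths come from GENCODE M21 (GRCm38), and 5 listed symbols were matched through RefSeq synonyms. The 9 genes and the lists were chosen with earlier results of these data known. Named were the 9 genes, list genes past the threshold whose average log2 CPM reached 2, the receptors' ligand genes and the genes of most similar profile. Genes named otherwise are said to be so, as are Gnaq and Gna11. The genes 9330158H04Rik, Ttc33, Cdh5, Sox10, Esam, Tek, Pdgfrb and Cspg4 were also chosen after their values were seen. So were Krt19, Wt1, Upk3b, Msln, Lrrn4, Kcnj8, Abcc9, Notch3 and Higd1b. This also holds for Pecam1, Kdr, Tie1, Emcn, Cldn5, Egfl7, Col9a1, Col9a3 and Tacr2. Gm15937 and 4933431K23Rik, which the count table does not hold, were named for their overlap.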

Additional observations from a re-analysis of the deposited data

How the results depend on the processing

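Of 15 alternative analyses, 10 called all of Chrm2, Ednra and Ednrb, and 5 called only Chrm2 and Ednra. No alternative called a member of the 9 higher in epithelium. Over the analyses that each left out 1 library, the count of the 9 receptors higher in muscle ranged from 2 to 3. For all tested genes it ranged from 570 to 1655 higher in muscle and from 514 to 918 higher in epithelium, beside 1274 and 797 in the main analysis. For the other receptors it ranged from 3 to 9 and from 1 to 2, for ligand supply from 1 to 6 and from 0 to 3, and for coupling from 5 to 10 and from 0 to 1. Genes higher in epithelium numbered 1439 with library totals only, 1514 with DESeq2 and 1222 with the covariate for stray counts. Other receptors higher in muscle numbered 5 with library totals only and 5 with the replicate block. Ligand genes higher in epithelium numbered 1 with DESeq2 size factors and 5 with the DESeq2 test. Coupling genes higher in epithelium numbered 0 within the shared header identifier. The median over all tested genes, -0.10 on the log2 scale, moved to -0.33 with library totals only and to 0.11 with the covariate.

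The log2 fold changes of 9 genes that were not called changed sign. Hrh1 was at 0.65 (limma-voom), 0.090 (replicate block), 2.12 (covariate) and 7.32 (without the 3 libraries with the most stray counts), and ranged from -1.90 to 1.11 with 1 library left out. Without those 3 libraries, epithelium was replicate 1 alone, where Hrh1 had 0 counts. Bdkrb2 was at 0.061 (limma-voom) and 0.31 (without those 3 libraries), with a range of -1.31 to 0.65, and Agtr1a at -0.062 within the shared header identifier. With 1 library left out, Edn2 ranged from -0.081 to 0.56, Chat from -6.56 to 0.40, Hdc from -3.36 to 0.22, Kng2 from -8.63 to 1.86, Ace from -4.80 to 0.72 and Ece1 from -0.31 to 0.43. Edn2 was at -0.14 with library totals only, and Ace at 0.32 with limma-voom and 0.71 with the covariate. Ece1 was at -0.13 with DESeq2 size factors and with the DESeq2 test, and at -0.33, -0.19, -0.17 and -0.22 with library totals only, limma-voom, the replicate block and the covariate. The cause was not tested for any of these.

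Deviations from the group mean correlated at 0.59, 0.73 and -0.57 across 19375 genes for libraries with the same number. Over the 4123 genes with the highest average level the values were 0.17, 0.15 and -0.17. The numbers were thus not taken to pair the libraries, and the replicate block is an alternative only. With it Ednrb was at 5.15 (adjusted p = 0.069). Across the alternatives, 58 genes were recomputed, many chosen because they were called or resembled a called receptor in profile. The 37 called in the main analysis therefore cannot be set against the 10.7% of all tested genes. Of these 37, 12 kept their call in all 15 alternatives.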
